A study of Mus musculus with 13 samples.

Results

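Siglecs are cell-surface receptors of the immunoglobulin superfamily that bind sialic acids, the charged sugars at the tips of the glycans on vertebrate cells. Of 55487 genes in the deposited table, 6 Siglec genes were taken by symbol through their Ensembl identifiers: Siglech, Cd33, Siglece, Siglec1, Siglecg and Cd22. These genes, and the gene lists used below, were chosen with earlier results of these data known. Each of the 6 is reported whatever its result. The libraries came from microglia, the macrophages of the brain parenchyma, that were pulled with CD11b magnetic beads from the whole brain of mouse pups at postnatal day 4. The control group (CON) had 5 retained libraries, and the group from dams with maternal immune activation (MIA) had 5. A further 3 libraries (CON 6, MIA 6 and MIA 7) are marked as excluded in their titles, for a reason not given in the sources used here. All libraries shared a preparation without perfusion, with removal of the meninges and papain digestion. Not given in the sources used here were the strain, sex and litter of the pups, the agent used for MIA and any sequencing batch. Nothing in the labels says that the libraries of a group came from separate animals, so p-values measure the spread between these libraries, which may be technical. The question was how immune activation of the mother alters neonatal microglia, here for the receptors that read sialic acid.

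Most Siglecs of the CD33-related group carry inhibitory tyrosine motifs (ITIMs) in the tail. Src-family kinases phosphorylate these motifs, which then recruit the phosphatases SHP-1 and SHP-2 and dampen activating signals. Other Siglecs lack such motifs and instead pair with the adaptor Tyrobp (DAP12), which carries an activating motif and recruits the kinase Syk. In the brain, sialic acids on neurons and other cells are ligands of microglial Siglecs, and enzymatic removal of sialic acid is a known trigger of microglial phagocytosis.

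All 6 genes were measured in every library, and 4 of the 6 fell in MIA: Siglech, Cd33, Siglece and Cd22. Their retained MIA levels were 0.637 to 0.785 of the control levels, and Siglec1 and Siglecg did not pass the test. In the same fit (edgeR, Benjamini-Hochberg adjusted p under 0.05), 10.3% of 15511 tested genes changed and 4.58% were lower in MIA. The median log2 fold change of the 6 genes was -0.46, beside -0.01 over all tested genes and -0.5 over 10 microglial genes given below. Siglech, Cd33 and Siglece had every retained MIA library below every retained control library, which 4.36% of tested genes did. The calls depended on the excluded libraries: with all 13 libraries edgeR called 0 of the 6 genes. Siglech, Cd33 and Siglece were then at an unadjusted p under 0.05, as were 3116 of 15618 tested genes. In the fit of the retained libraries 3519 of 15511 genes were at such a p. In bulk RNA, fewer cells of a type and less RNA per cell cannot be told apart.

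Siglech, Cd33 and Siglece, whose groups did not overlap, are shown first by the sequence just upstream of their RefSeq transcription starts. Each window is the 250 bases before the start on the strand of the gene, 5′ to 3′, from RefSeq on GRCm38.p6. The RefSeq table used here was matched for 5 of the 6 genes, all but Siglec1. Siglech is read from chr7:55767934-55768183 on the plus strand, Cd33 from chr7:43533172-43533421 on the minus strand and Siglece from chr7:43660162-43660411 on the minus strand. Capitals mark exact matches on either strand to GAGGAA, the core of many sites of the macrophage factor PU.1, or to GGAAGT, which carries the GGAA core of ETS-family factors and can overlap GAGGAA.
Siglech: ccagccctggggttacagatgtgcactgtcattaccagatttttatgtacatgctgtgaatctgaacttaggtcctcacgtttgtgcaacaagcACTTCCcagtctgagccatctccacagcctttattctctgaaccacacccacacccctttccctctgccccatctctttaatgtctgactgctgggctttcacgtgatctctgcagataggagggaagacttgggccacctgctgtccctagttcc
Cd33: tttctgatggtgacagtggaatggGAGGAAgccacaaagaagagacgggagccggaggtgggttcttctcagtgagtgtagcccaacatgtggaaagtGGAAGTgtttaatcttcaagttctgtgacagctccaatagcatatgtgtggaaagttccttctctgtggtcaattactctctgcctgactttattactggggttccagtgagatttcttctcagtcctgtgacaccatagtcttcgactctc
Siglece: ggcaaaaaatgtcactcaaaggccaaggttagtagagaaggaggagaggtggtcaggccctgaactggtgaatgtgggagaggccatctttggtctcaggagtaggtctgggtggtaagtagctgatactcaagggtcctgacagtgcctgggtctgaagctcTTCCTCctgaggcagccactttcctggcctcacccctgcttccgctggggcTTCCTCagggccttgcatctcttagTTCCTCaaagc

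The Siglech window held 1 match, GGAAGT read on the opposite strand as ACTTCC, which begins 156 bases before the start. The Cd33 window held GAGGAA 226 bases and GGAAGT 152 bases before the start. Siglece held GAGGAA on the opposite strand, read as TTCCTC, at 87, 36 and 11 bases before the start. Over 32851 RefSeq windows of the same length, 23.3% held GAGGAA and 19.7% held GGAAGT, so such matches are common. An interferon-type motif, GAAA followed by any 2 bases and GAAA, found in 2.98% of windows on either strand, was in none of the windows of the 5 genes, and the Cd22 window held none of the 3 motifs. Cd33 shared a run of 16 bases with the window of Siglecf, another Siglec gene. The shared run was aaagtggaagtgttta, and it began 157 bases before the start of Cd33 and 27 bases before that of Siglecf. These matches describe letters only, and no binding was measured.

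In the GENCODE M21 annotation of GRCm38, whose versioned identifiers match those of the 6 genes in the table, 5 of the 6 lie on chromosome 7. Siglecg (ENSMUSG00000030468.12, chr7:43408204-43418358, plus strand), Cd33 (ENSMUSG00000004609.11, chr7:43524216-43544428, minus strand) and Siglece (ENSMUSG00000030474.9, chr7:43651070-43660161, minus strand) stand near each other. The RefSeq start used for the Cd33 window lies inside the longer GENCODE gene. Cd22 (ENSMUSG00000030577.14, chr7:30865402-30880342, minus strand) and Siglech (ENSMUSG00000051504.18, chr7:55768178-55778925, plus strand) lie on either side of them. Siglec1 (ENSMUSG00000027322.11) is on chr2:131069220-131086765, minus strand. The authors' own build was not given in the sources used here. Every deposited count of the 6 genes, before rounding, was exactly a whole number in every library, while 20.6% of nonzero values in the table were not whole.

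The libraries held 25387100 to 35593500 counts, and levels are given as CPM, counts scaled to a common library size with TMM factors. Over all genes 892 were higher and 710 lower in MIA, or 1036 and 496 when libraries were scaled by total counts alone. CON 1 and CON 2 stood apart: 12 immediate early and dissociation genes summed to 2410 and 2230 CPM there and to 6210 to 9930 CPM in the other 11 libraries. Red blood cell genes summed to 61.4 and 80.3 CPM in CON 1 and CON 2 and to 1160 to 3060 CPM in the other 11. The labelled cell type was checked on 10 microglial genes, among them Csf1r and Cx3cr1, which summed to 23200 to 30100 CPM in CON and 15300 to 19800 CPM in MIA. Of these genes 9 of 10 were lower in MIA, while 8 of 8 endothelial genes were higher, led by Cldn5 and Kdr, with sums of 826 to 1370 CPM in CON and 2470 to 4150 CPM in MIA. The part of the endothelial transcripts in the Siglec results was not tested.

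The 6 receptors spanned a wide range of levels. Per kilobase of median coding transcript length in GENCODE M21, Siglech stood at 419 CPM per kb in CON (range 381 to 459, n = 5). Cd33 stood at 213 CPM per kb (191 to 242), and Siglece followed at 24.8 CPM per kb (21.1 to 27.9). These 3 were thus ordered with no overlap between neighbours. Below them, Cd22 at 4.02 CPM per kb (2.75 to 5.74) and Siglec1 at 2.51 CPM per kb (1.82 to 3.02) overlapped. Siglecg was lowest at 1.14 CPM per kb (0.686 to 1.58) and did not overlap Siglec1 in CON. In MIA, Siglec1 ranged from 0.905 to 3.07 CPM per kb and overlapped both Cd22 (2.2 to 3.15) and Siglecg (0.636 to 1.12). With the longest coding transcript as the length the order was the same, but Cd33 was lower, at 69.6 CPM per kb beside 327 CPM per kb for Siglech.

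**Figure D1:**
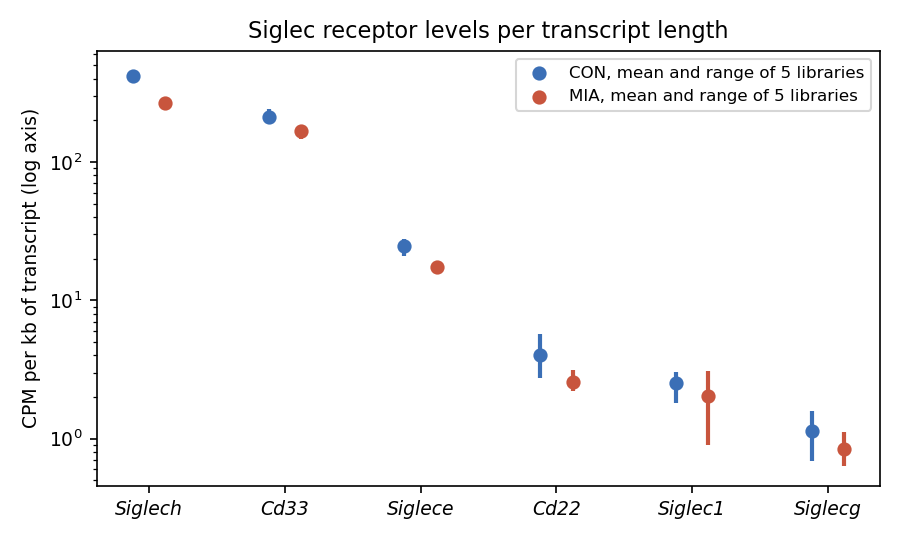
Level of each Siglec gene in CPM per kilobase of median coding transcript length, on a log axis, with points for the mean and lines for the range of the 5 retained libraries of CON (blue) and MIA (red). Siglech, at 419 CPM per kb in CON, and Siglecg, at 1.14, mark the top and bottom of the range.

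Siglech encodes a Siglec that signals through Tyrobp and is a marker of microglia and plasmacytoid dendritic cells. The control libraries CON 1 to CON 5 held 743, 823, 770, 684 and 740 CPM of Siglech. The MIA libraries MIA 1 to MIA 5 held 533, 526, 499, 434 and 424 CPM. The highest MIA library was thus below the lowest control library. Siglech fell by 0.64 ± 0.08 on the log2 scale (SE), from 752 ± 50.5 to 483 ± 50.9 CPM (SD, n = 5 each; edgeR adjusted p = 0.000487). It was lower in 5 of 5 MIA libraries than the control median, and the call was kept in each of the 10 fits without 1 retained library, with an adjusted p of at most 0.00253. Excluded CON 6 held 550 CPM, below every retained control, and excluded MIA 6 and MIA 7 held 690 and 695 CPM, within the control range. With all 13 libraries the means were 718 ± 93.8 CPM (SD, n = 6) and 543 ± 110 CPM (SD, n = 7), and the fall was -0.40 on the log2 scale (edgeR adjusted p = 0.0762).

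Plasmacytoid dendritic cells also express Siglech. Of 8 marker genes of that cell type 4 had enough counts to be tested, of which 0 changed with edgeR. At an unadjusted p under 0.05 there was 1, beside 3519 of all 15511 tested genes. The list summed to 184 to 361 CPM in CON and 158 to 239 CPM in MIA, nearly all of it Lag3, a gene that microglia also express (273 and 192 CPM), then Pacsin1 (11 and 10.3 CPM). Klk1 was at 0 counts in all libraries, and Ccr9 averaged 0.368 CPM in CON and 0.561 CPM in MIA.

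Cd33 encodes the founding receptor of the CD33-related group, whose human counterpart is an inhibitory receptor of myeloid cells linked by human genetics to Alzheimer disease. The 5 control libraries held 414, 454, 381, 358 and 387 CPM of Cd33. The 5 MIA libraries held 342, 349, 300, 300 and 275 CPM. The groups did not overlap, but the gap between CON 4 and MIA 2 was narrow. Cd33 fell by 0.35 ± 0.09 on the log2 scale (SE), from 399 ± 37 to 313 ± 31.1 CPM (SD, n = 5 each; edgeR adjusted p = 0.0217), and 5 of 5 MIA libraries were below the control median. In the fits without 1 retained library the log2 fold change of Cd33 was -0.39 to -0.3. The call was lost in some of these fits: without CON 2 (edgeR adjusted p = 0.0538), MIA 3 (0.0531), MIA 4 (0.0627) or MIA 5 (0.0729). Excluded CON 6 held 280 CPM, below every retained control, while MIA 6 and MIA 7 held 330 and 364 CPM. With all 13 libraries Cd33 had a log2 fold change of -0.23 (edgeR adjusted p = 0.194), and one of -0.13 when CON 1 and CON 2 were left out of these 13 (edgeR adjusted p = 0.504).

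Siglece encodes an inhibitory, ITIM-bearing receptor of mouse microglia, monocytes and neutrophils. Its level was 35.5, 28.7, 33.5, 26.8 and 33 CPM in CON 1 to CON 5. MIA 1 to MIA 5 held 23.4, 23.1, 22.1, 20.7 and 22.3 CPM of Siglece. The MIA libraries lay close together and all below the controls. Siglece fell by 0.50 ± 0.10 on the log2 scale (SE), from 31.5 ± 3.62 to 22.3 ± 1.04 CPM (SD, n = 5 each; edgeR adjusted p = 0.00579). The call was kept without any 1 retained library, with an adjusted p of at most 0.0206. The excluded libraries held 28 (CON 6), 30 (MIA 6) and 27.2 CPM (MIA 7), all within the range of the retained controls, and with all 13 libraries the log2 fold change was -0.36 (edgeR adjusted p = 0.0544). Of 10 neutrophil genes 9 were tested, of which 0 changed with edgeR. An unadjusted p under 0.05 was reached by 3 of them, beside 3519 of 15511 tested genes. The neutrophil genes were led by S100a8 and S100a9 and summed to 59.8 to 133 CPM in CON and 35.7 to 72.6 CPM in MIA. Of 8 monocyte genes 8 were tested and 1, Fn1, was higher (148 CPM in CON and 364 CPM in MIA). Ly6c2 went the other way (log2 fold change -1.47, edgeR adjusted p = 0.06). The monocyte list, most of it Fn1, summed to 156 to 204 CPM in CON and 298 to 469 CPM in MIA. The part of neutrophil and monocyte genes in the Siglece result was not tested.

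Cd22 encodes an ITIM-bearing Siglec best known as an inhibitory co-receptor of the B cell receptor and also found on microglia. Control levels were 9.43, 11.8, 14.6, 13.5 and 19.7 CPM. MIA levels were 10.8, 8.92, 8.51, 8.19 and 7.56 CPM. The groups overlapped, since CON 1 was below MIA 1, and CON 5 stood highest. Cd22 fell by 0.65 ± 0.19 on the log2 scale (SE), from 13.8 ± 3.82 to 8.8 ± 1.23 CPM (SD, n = 5 each; edgeR adjusted p = 0.0459), and 5 of 5 MIA libraries were below the control median. This call was the least stable of the 4: it was kept without CON 1 or MIA 1 and lost without any of the other 8 retained libraries, with an edgeR adjusted p of up to 0.125. Excluded MIA 6 and MIA 7 held 15.4 and 14.8 CPM, above every retained MIA library, and CON 6 held 13.4 CPM. With all 13 libraries the log2 fold change was -0.38 (edgeR adjusted p = 0.32).

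B lymphocyte genes were near 0 apart from 1. Of 10 such genes 3 were tested, and only Cd79b was lower (59.1 in CON and 38 CPM in MIA), and it made up most of a sum of 56.1 to 71.6 CPM in CON and 34.2 to 43.8 CPM in MIA. Cd79a, the next most abundant, averaged 0.503 and 0.583 CPM, and Pax5 0.144 and 0.0669 CPM. Cd22, at 13.8 CPM in control libraries, lay below Cd79b and above Cd79a and Pax5. The part of B lymphocyte transcripts in the Cd22 result was not tested.

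Siglecg encodes an ITIM-bearing Siglec known from B-1 cells and other leukocytes. Its level was 2.76, 2.62, 4.05, 1.76 and 3.44 CPM in the controls. In the 5 MIA libraries it was 2.88, 2.71, 1.63, 1.84 and 1.84 CPM. The groups overlapped, and 4 of 5 MIA libraries were below the control median. The log2 fold change was -0.42 ± 0.30 (SE; edgeR adjusted p = 0.463), from 2.93 ± 0.867 to 2.18 ± 0.573 CPM (SD, n = 5 each). Siglecg had 48 to 139 counts in a retained library, and its difference did not pass. Among the excluded libraries, Siglecg was 2.24 CPM in CON 6, 3.19 CPM in MIA 6 and 1.25 CPM in MIA 7, so these MIA libraries lay outside the retained MIA range on opposite sides.

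Siglec1 encodes sialoadhesin (CD169), a long Siglec without inhibitory motifs that mediates adhesion on macrophages and is induced by interferon. The controls held 17.5, 13.9, 16.7, 10.6 and 14.2 CPM of Siglec1. The MIA libraries held 17.8, 14, 5.24, 12.3 and 10.1 CPM. MIA 1 was thus the highest and MIA 3 the lowest of the 10 retained libraries. The log2 fold change was -0.29 ± 0.26 (SE; edgeR adjusted p = 0.579), from 14.6 ± 2.72 to 11.9 ± 4.66 CPM (SD, n = 5 each), and 4 of 5 MIA libraries were below the control median. CON 6 held 8.63 CPM, and MIA 6 and MIA 7 held 11.4 and 11.7 CPM. Macrophages of the brain borders are known for Siglec1: of 10 of their marker genes 1, Stab1, was lower in MIA, and the list, led by Mrc1 and Stab1, summed to 2030 to 2990 CPM in CON and 1290 to 2910 CPM in MIA. Of 12 interferon-stimulated genes 0 changed with edgeR, and 2 were at an unadjusted p under 0.05, beside 3519 of 15511 tested genes. The 12 genes summed to 213 to 514 CPM in CON and 347 to 471 CPM in MIA.

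**Figure D2:**
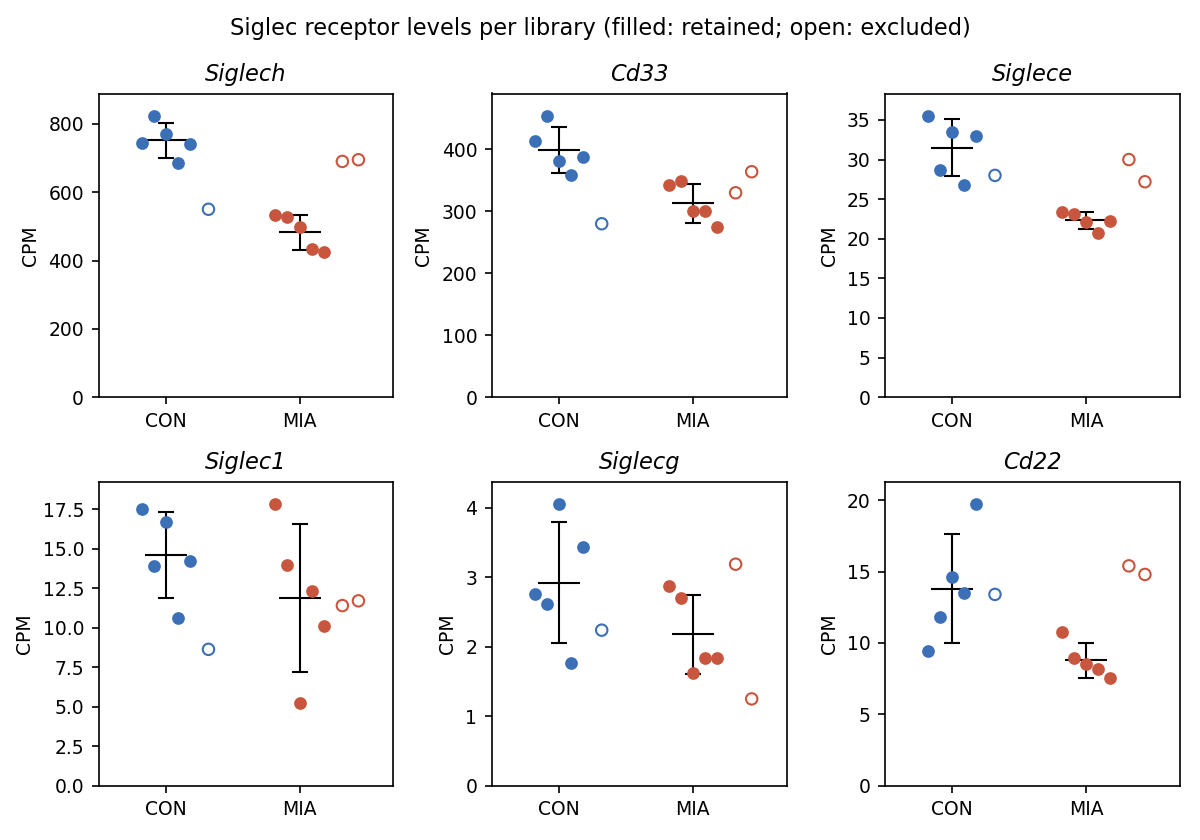
Level of each Siglec gene in CPM by library, with filled points for the 5 retained libraries of CON (blue) and MIA (red), a bar and whiskers for their mean ± SD, and open points for the excluded libraries. For Siglech the retained groups are apart (684 to 823 against 424 to 533 CPM) and the excluded MIA libraries, at 690 and 695 CPM, lie at control height.

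Leaving out or adding whole sets of libraries changed the counts of called genes. With all 13 libraries 4.22% of tested genes were called, and 0 of the 6 Siglec genes. Without CON 1 and CON 2 among the retained libraries, 12.2% were called, and Siglech, Siglece and Cd22 were among them, with log2 fold changes of -0.61, -0.49 and -0.87 (edgeR adjusted p = 0.00124, 0.0106 and 0.00605). Cd33 then had a log2 fold change of -0.27 (edgeR adjusted p = 0.0569). When CON 1 and CON 2 were left out of the 13, edgeR called 0.561% of genes and 0 of the 6. Siglech, Siglece and Cd22 were then at an unadjusted p under 0.05, as were 3146 of 16036 tested genes. Each of the 6 genes had a negative log2 fold change in the retained libraries and in these 3 other sets. The sets share most of their libraries, so their signs are not independent of each other.

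The Siglec genes were then set beside the microglial genes in the same library. The mean log2 CPM of the 10 microglial genes differed by -0.52, from 10.53 ± 0.15 for the controls to 10.01 ± 0.21 for MIA (SD, n = 5 each). Relative to that mean, Siglech stood at -0.98 ± 0.07 in CON and -1.10 ± 0.06 in MIA, a difference of -0.12 (2-sided exact permutation p = 0.0317, adjusted 0.0952 over 6 genes). Cd33 stood at -1.89 ± 0.07 in CON and -1.72 ± 0.13 in MIA, a difference of 0.17 in the other direction (2-sided exact permutation p = 0.0238, adjusted 0.0952). The differences of Siglece (0.03), Siglec1 (0.14), Siglecg (0.12) and Cd22 (-0.09) had adjusted exact permutation p-values of 0.825. None of the 6 passed after adjustment, and the smallest p that 5 against 5 libraries can give is 0.00794. Over the 13 libraries the log2 CPM of Siglech followed the summed microglial genes (Pearson r = 0.97) and ran against the endothelial genes (r = -0.87). For Cd33 these values were 0.87 and -0.87, for Siglece 0.81 and -0.82, for Cd22 0.68 and -0.46, for Siglecg 0.43 and -0.48 and for Siglec1 0.35 and -0.61. These correlations are descriptions, since the points share libraries, scaling and groups.

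The ratio of Cd33 to Siglech within a library does not depend on scaling. It was 55.8, 55.2, 49.5, 52.3 and 52.2 Cd33 counts per 100 Siglech counts in CON 1 to CON 5. In MIA 1 to MIA 5 it was 64.1, 66.4, 60.2, 69.1 and 64.9. Every retained MIA library was above every retained control, with means of 53 ± 2.56 and 64.9 ± 3.26 (SD, n = 5 each). On the log2 scale the difference was 0.29, with a 2-sided exact permutation p of 0.00794, the smallest possible, and an adjusted p of 0.119 over the 15 pairs of the 6 genes. A single separated pair cannot go below that adjusted p with 5 against 5 libraries. This pair was singled out after its values were seen. The excluded libraries did not follow the split, with 50.9 in CON 6, 47.8 in MIA 6 and 52.4 in MIA 7, and with all 13 libraries the difference was 0.19 (exact permutation, adjusted p = 0.699).

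**Figure D3:**
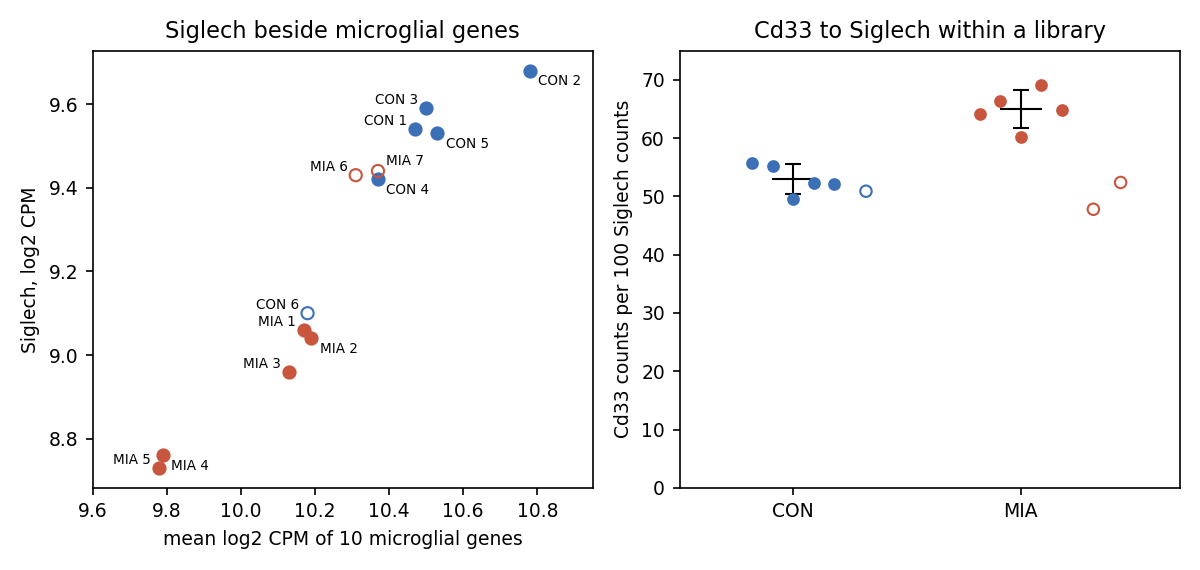
Left, log2 CPM of Siglech against the mean log2 CPM of 10 microglial genes in each of 13 libraries, and right, Cd33 counts per 100 Siglech counts by group, with the mean ± SD of the 5 retained libraries; CON is blue, MIA red, and excluded libraries are open. Siglech and the microglial genes are both highest in CON 2 and lowest in MIA 4 and MIA 5, and the ratio is 49.5 to 55.8 in retained CON and 60.2 to 69.1 in retained MIA.

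Among the 6 genes, the 3 pairs that varied most alike all included Siglech. Over 13 libraries the log2 CPM of Siglech correlated with Siglece at r = 0.87, with Cd33 at 0.86 and with Cd22 at 0.73. Siglec1 correlated with Siglech at 0.43 and with Cd22 at 0.22. By the correlation of log2 CPM over the 13 libraries among genes of at least 10 mean CPM, the patterns most like Siglech were those of Csf2rb (r = 0.98), Pld4 (0.98) and Scamp2 (0.97). Csf2rb is the shared beta chain of the GM-CSF receptor, and Pld4 a lysosomal nuclease. For Cd33 they were Acox3 (0.94), Tubgcp5 (0.94) and Fam53b (0.93), and for Siglece Rab11fip5 (0.97), the lipid carrier gene Apoe (0.95) and Os9 (0.94). For Cd22 they were the sialidase gene Neu1 (0.94), the checkpoint receptor gene Lag3 (0.92) and the lysosomal protease gene Ctsl (0.90). Those of Siglec1 were Ppp1r3b (0.89), Cyp27a1 (0.87) and Clec4a1 (0.84), and those of Siglecg were Bicral (0.82), Tk2 (0.81) and E4f1 (0.79).

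Other genes of sialic acid recognition were read from 5 lists of 52 genes, of which 47 were tested. Of these, 12 were lower and 3 higher in MIA, 31.9% in all, beside 10.3% of all tested genes. The 15 calls came to 4 with all 13 libraries and with edgeR to 0 when CON 1 and CON 2 were left out of these. In that last fit 21 pathway genes were at an unadjusted p under 0.05, beside 3146 of 16036 tested genes. Of the other Siglec genes, Siglecf, an inhibitory receptor known from eosinophils, was 27.6, 29.2, 32.8, 27.9 and 38.9 CPM in the controls. In MIA it was 24.7, 25.6, 23.3, 15.6 and 20 CPM. The groups did not overlap, and Siglecf fell by 0.52 ± 0.15 on the log2 scale (standard error; edgeR adjusted p = 0.0382). The call was lost when CON 2, CON 3 or CON 5 was left out, or MIA 3, MIA 4 or MIA 5, with an edgeR adjusted p of up to 0.113. Of 8 eosinophil and mast cell genes 4 were tested and 1, Kit, was higher. The list summed to 20.1 to 42.1 CPM in CON and 44.3 to 69.8 CPM in MIA. Most of both sums was Kit (means of 23.9 CPM in CON and 52.7 CPM in MIA), and Prg2 came next (1.72 and 1.43 CPM). The eosinophil genes Epx and Ccr3 averaged 0.0666 and 1.11 CPM in CON and 0.122 and 0.768 CPM in MIA. Mag, a Siglec of the myelin sheath, went from 10.4 ± 2 to 7.52 ± 2.3 CPM (SD, n = 5 each; edgeR adjusted p = 0.22), and Siglec15 had 0 counts in all 13 libraries, where 3 counts would be 0.0875 to 0.117 CPM.

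Of 15 signalling partners of Siglecs, 8 were lower in MIA, beside 4.58% of all tested genes, and none was higher with edgeR. Of the 10 microglial genes 9 were lower, with a median log2 fold change of -0.5, beside -0.42 for the partners. The part of microglial transcripts in the partner results was not tested. At an unadjusted p under 0.05 there were 10 partners, beside 3519 of 15511 tested genes. Among these 10 only Src went up (log2 fold change 0.66, edgeR adjusted p = 0.0806). Tyrobp, the adaptor of Siglech, went from 1070 ± 151 to 734 ± 87.1 CPM (SD, n = 5 each) and fell by 0.54 ± 0.11 on the log2 scale (standard error; edgeR adjusted p = 0.00684). Downstream of it, the kinase Syk fell by 0.43, the exchange factor Vav1 by 0.49 and the phospholipase Plcg2 by 0.39. Lyn, a Src-family kinase that phosphorylates ITIMs, went from 523 ± 16.7 to 392 ± 17.5 CPM (SD, n = 5 each; edgeR adjusted p = 0.000927). On the inhibitory side, Ptpn6, which encodes SHP-1, fell by 0.44 (edgeR adjusted p = 0.0392) and the lipid phosphatase Inpp5d fell by 0.40. The Ptpn6 call was kept without CON 1 or MIA 2 and lost without any of the other 8 retained libraries (edgeR adjusted p of up to 0.125), and with total counts alone (0.053). The Plcg2 call was lost when CON 2, CON 3 or CON 5 was left out, or MIA 3, MIA 4 or MIA 5 (edgeR adjusted p of up to 0.0958). Ptpn11, which encodes SHP-2, had a log2 fold change of 0.02 (edgeR adjusted p = 0.957). With all 13 libraries Lyn (edgeR adjusted p = 0.0297), Inpp5d (0.0298) and Vav1 (0.0471) passed. Tyrobp (0.0879), Syk (0.062), Plcg2 (0.0845) and Ptpn6 (0.0888) did not.

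Genes that make and turn over sialic acid were read next. The list of 7 synthesis and activation genes also holds Npl, which encodes a lyase that breaks down free sialic acid. Only Npl passed on this list, and it was lower (log2 fold change -0.37, edgeR adjusted p = 0.0379). The Npl call was kept without CON 1, MIA 1 or MIA 2 and lost without any of the other 7 retained libraries (edgeR adjusted p of up to 0.126), with total counts alone (0.0611), with the replicate number as a block (0.0576) and with all 13 libraries (0.0942). Gne, which encodes the first enzyme of synthesis, had a log2 fold change of 0.27 (edgeR adjusted p = 0.302), Nans of -0.24 (0.331) and the Golgi transporter gene Slc35a1 of 0.17 (0.43). Among sialidases and O-acetylation genes, 1 of 5 tested was lower: Siae, a sialic acid esterase (-0.36, edgeR adjusted p = 0.0458). The Siae call was lost in 13 of 20 alternatives, among them all 13 libraries (edgeR adjusted p = 0.179), the replicate block (0.0811) and both other filters on low counts (0.0537 and 0.0523). It was kept without CON 1, CON 4 or MIA 1 and lost without any of the other 7 retained libraries (edgeR adjusted p of up to 0.129). Neu1, the lysosomal sialidase, had a log2 fold change of -0.26 (edgeR adjusted p = 0.0796), Neu3 of -0.73 (0.185) and Casd1, the O-acetyltransferase, of 0.05 (0.909).

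Sialyltransferases, which attach sialic acid to glycans, included genes that rose: 3 of 18 tested were higher and 1 lower, beside 5.75% of all tested genes higher. St8sia4, which builds polysialic acid on adhesion molecules, went from 36 ± 4.54 to 65.8 ± 8.18 CPM (SD, n = 5 each), higher by 0.87 ± 0.11 in log2 terms (SE; edgeR adjusted p = 0.000418). Its groups did not overlap, it kept its call without any 1 retained library, and it passed with all 13 libraries (edgeR adjusted p = 0.0201) but not when CON 1 and CON 2 were left out of these (0.0563). St6galnac2 rose by 1.07 (edgeR adjusted p = 0.0217) and St6galnac3 by 0.97 (0.027), both from under 10 CPM in CON and with overlapping groups. The St6galnac2 call was lost without CON 3, CON 4, MIA 4 or MIA 5 (edgeR adjusted p of up to 0.0636) and with all 13 libraries (0.116). The St6galnac3 call was lost without CON 2, CON 3, CON 4, MIA 3 or MIA 5 (edgeR adjusted p of up to 0.0832), without both CON 1 and CON 2 (0.0722) and with all 13 libraries (0.0526). St6galnac4 fell by 0.32 (edgeR adjusted p = 0.0259), a call lost without CON 2, CON 3, MIA 2, MIA 4 or MIA 5 (edgeR adjusted p of up to 0.0922), with total counts alone (0.0611) and with all 13 libraries (0.0531). St6gal1, which makes the linkage that Cd22 prefers, had a log2 fold change of -0.18 (edgeR adjusted p = 0.408), and St3gal6 and St3gal5, of the linkage read by Siglec1, of 0.13 (0.33) and -0.07 (0.854). Endothelial genes were higher in the same libraries, as given above. Of 7 neuron genes 4 were also higher and 0 lower with edgeR. The neuron genes summed to 53 to 72.1 CPM in CON and 100 to 150 CPM in MIA. The part of endothelial and neuron transcripts in the sialyltransferase values was not tested.

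**Figure D4:**
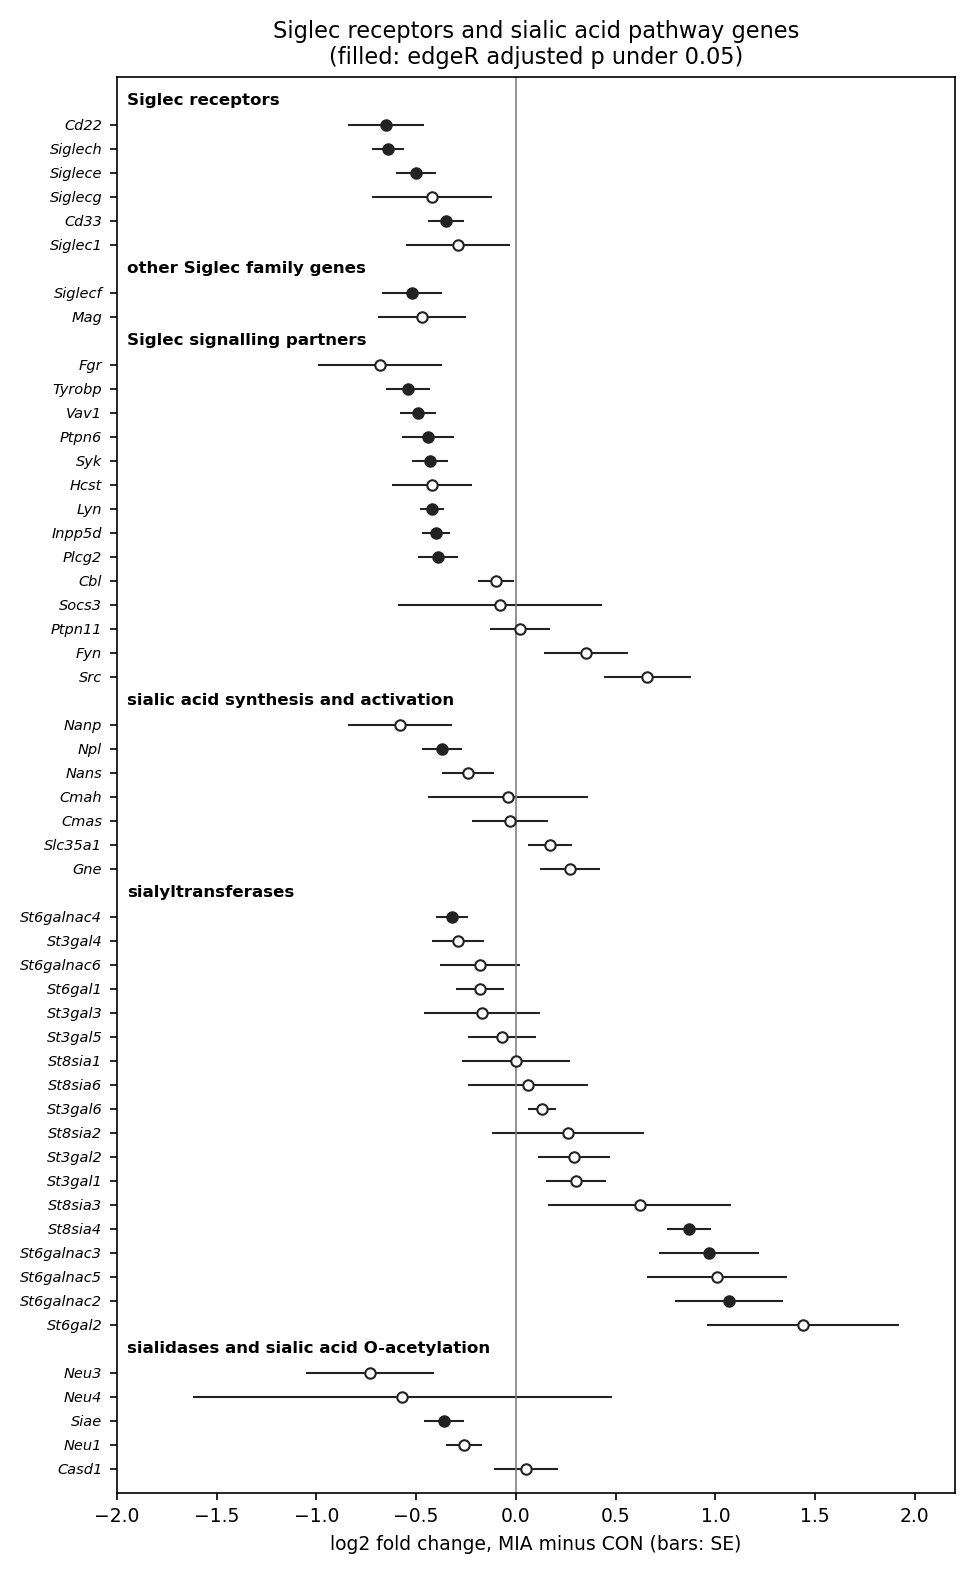
Log2 fold change of MIA minus CON with its standard error for the 6 Siglec genes and tested genes of 5 sialic acid lists (1 signalling partner is not drawn), filled where the edgeR adjusted p was under 0.05. Filled points of the receptors and their signalling partners all lie left of 0 (Siglech at -0.64, Tyrobp at -0.54), and those right of 0 are the sialyltransferases St8sia4, St6galnac2 and St6galnac3 (0.87 to 1.07).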

How the data were processed

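The authors deposited 1 table of expected counts, estimated counts per gene that are not normalized across libraries, for 55487 genes and 13 libraries, and 0 columns of other samples. RSEM, STAR and DESeq2 are named in the submitters' processing notes, with the genome build and annotation not given in the sources used here. Per the labels' protocols, libraries were made by a modified Smart-Seq2 method that primes on poly(A) tails, with tagmentation that does not mark strand and no molecular identifiers, so reads of overlapping genes on opposite strands cannot be told apart.

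Symbols came from Ensembl identifiers (54349 of 55487 matched with their version, 55141 with or without it). Rounding to whole counts moved values by up to 0.5. Depth was 25387100 to 35593500 counts per library, so 3 counts, the limit that a count of 0 allows, were 0.0875 to 0.117 CPM, which covers counting error only. The 5 retained CON and 5 retained MIA libraries were compared with edgeR 4.0.16 in R 4.3.3 (filterByExpr, TMM scaling, robust quasi-likelihood test, group as the only term) with Benjamini-Hochberg adjustment over 15511 genes. Standard errors (SE) of log2 fold changes were taken as the absolute change over the root of F. CPM values use TMM factors over all 13 libraries, and log2 CPM a prior count of 2. Single values were compared by 2-sided exact permutation tests. The fit was tested on simulated data.

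The 6 genes, the gene lists and the rule for named genes were chosen with earlier results of these data known. The rule named every Siglec member, pathway genes past the threshold, up to 4 of the most abundant genes of a pathway list, the 3 genes most like each member in pattern, and the 2 most abundant genes of a marker list. A few marker genes at or near 0, and Ptpn11, Src, Ly6c2 and Ccr9, were named after their values were seen. Some genes that the rule takes are left out of the text. Alternatives were a replicate block, other sets of libraries, leaving out each library, DESeq2 1.42.0, limma-voom (limma 3.58.1), other scalings and other filters on low counts. The ratio of Cd33 to Siglech was added after seeing the data.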

Additional observations from a re-analysis of the deposited data

How the results depend on the processing

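The number of genes called, 1602 with edgeR, was 659 with all 13 libraries, 90 with all 13 except CON 1 and CON 2, and 1037 to 2262 in fits without 1 retained library (1058 without MIA 4, 1037 without MIA 5). The number of Siglec genes called, 4, was 0 in both of the fits with excluded libraries and 2 to 4 without 1 retained library. It was 2 without CON 2, MIA 3, MIA 4 or MIA 5, with Siglech and Siglece called in each of these fits. The number of pathway genes called, 15, was 4 with all 13 libraries and 0 with all 13 except CON 1 and CON 2. It was 7 to 19 without 1 retained library. DESeq2 called 4 Siglec genes and limma-voom, scaling by total counts and the replicate block 3 each, losing Cd22 (adjusted p = 0.0647, 0.0596 and 0.116). Over all alternatives the log2 fold change of Cd22 was -0.87 to -0.38. The replicate numbers are not shown to pair the samples: same-numbered libraries correlated at 0.06 to 0.3 and best matched their own number in 1 of 5 cases, and the fit with the replicate block called 1524 genes. Values relative to the microglial genes were small and changed sign in places. Siglece was -0.02 without CON 1 and CON 2, -0.04 with all 13 except these, and -0.06 to 0.09 without 1 retained library (-0.03 without MIA 5). Siglecg was -0.08 with all 13 except CON 1 and CON 2 and 0 to 0.26 without 1 library, and Cd22 was -0.21 to 0.04 without 1 library. Casd1 was -0.07 (without CON 3) to 0.16 without 1 library. The cause of these changes was not tested.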
